A study of Mus musculus with 47 samples.

Results

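The genes described here are the nuclear genes of the mitochondrial respiratory chain, in cultured mouse B cell lymphomas treated with a DNA-damaging drug. They were taken as every probe set whose single platform gene symbol starts with Nduf, Uqcr, Sdha, Sdhb, Sdhc, Sdhd, Cox4, Cox5, Cox6, Cox7, Cox8 or Atp5, plus Cyc1 and Cycs. A total of 190 of 45101 probe sets met this rule. They stand for 96 of the 18194 genes measured, each read by its brightest probe set over all 47 arrays, and 42 of the 96 have a single probe set. By textbook role they comprise 34 subunits of complex I, 4 of complex II, 9 of complex III, cytochrome c, 10 common subunits and 8 tissue isoforms of complex IV, 17 subunits of complex V, and 13 assembly or supercomplex factors that share the prefixes. The 75 members that are neither tissue isoforms nor factors are called the common subunits below. A further 10 probe sets carry such a symbol together with another gene's and were left out.

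Complex I passes electrons from NADH, and complex II from succinate, to ubiquinone. Complex III hands them to cytochrome c, complex IV hands them to oxygen, and complex V (ATP synthase) makes ATP from the proton gradient that complexes I, III and IV build. Most subunits are encoded in the nucleus and imported, and a core set is encoded by mitochondrial DNA. Several complex IV subunits exist as an isoform found in most tissues and an isoform of heart and skeletal muscle, lung or testis.

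RNA was measured on Affymetrix 3′ arrays in primary lymphoma cells of Emu-myc mice, in which a Myc transgene under the immunoglobulin heavy chain enhancer drives B cell lymphoma. Every culture overexpressed Bcl2, which blocks apoptosis, from a retrovirus. Cells underwent 48 h of puromycin selection, and their feeder layer was NIH 3T3, a mouse fibroblast line, irradiated at 20 Gy. The groups are WT (Suv39h1 intact) lymphomas under ADR and native, with 14 arrays each from the same 14 lymphomas, and Suv39h1- lymphomas under ADR and native, with 5 arrays each from 5 lymphomas. A further 3 cultures were Suv39h1- and carried Suv39h1ER, the histone H3K9 methyltransferase Suv39h1 fused to an estrogen receptor domain that needs 4-hydroxytamoxifen (4OHT). They were measured under ADR with 4OHT, under ADR alone and native, with 3 arrays each. ADR stands for 0.05 µg/ml Adriamycin (doxorubicin) for 5 days, and native for untreated. The labels call the WT ADR arrays and the Suv39h1ER ADR 4OHT arrays senescent, and the others non-senescent. Suv39h1 itself was not analysed here.

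The median log2 value per array was 4.32 to 4.43, and 4.07 for Suv39h1- lymphoma 1032 under ADR. Over 200 genes that differ more between than within lymphomas, arrays under different labels among WT lymphomas 2949, 5043, 5766 and 6054 correlated at 0.08 to 0.80 (median 0.59), where other pairs of labels had a median of -0.09 (-0.74 to 0.74) and both arrays of 1 lymphoma a median of 0.80. The 200 genes were chosen on these same arrays, which raises the value for both arrays of 1 lymphoma. Suv39h1- lymphomas 7890 and 9250 correlated at 0.13 to 0.28, inside the range of other pairs. In the alternative called alike lymphomas counted once, 1 lymphoma was kept of each of these sets. The mean level of 7 B cell markers was 8.61 under ADR and 9.01 native in WT, 8.59 and 8.61 in Suv39h1-, and 8.39, 8.39 and 8.27 in Suv39h1ER under ADR 4OHT, ADR and native. Of these 7, 3 were called lower under ADR in WT, and 1 was called lower in native Suv39h1- than in native WT lymphomas. Markers of the feeder cells moved with ADR in WT lymphomas. The mean level of 12 fibroblast markers was 6.88 (5.31 to 9.04 over arrays) under ADR and 5.09 (4.60 to 5.75) native in WT, and 11 of the 12 were called higher. It was 5.45 and 5.32 in Suv39h1- lymphomas under ADR and native. In Suv39h1ER cultures it was 5.00 under ADR 4OHT, 5.79 under ADR and 4.52 native. Of 8 macrophage markers 7 were called higher in WT, with a mean level of 8.76 under ADR and 7.03 native. Of 11 mitosis genes 11 were called lower there, with a mean level of 7.80 under ADR and 9.96 native. The 3′ minus 5′ log2 difference of the Gapdh control probe sets, a sign of RNA quality, was 0.18 ± 0.23 in WT ADR arrays and 0.08 ± 0.05 in WT native arrays (SD, n = 14 each). It was 0.33 in Suv39h1- ADR and 0.25 in Suv39h1- native arrays, and 0.34 to 0.36 in the 3 Suv39h1ER groups. For Actb it was 0.56 in WT ADR and 0.59 in WT native arrays, 0.87 in Suv39h1- ADR and 0.85 in Suv39h1- native arrays, and 0.90, 0.62 and 1.11 in Suv39h1ER arrays under ADR 4OHT, ADR and native. The part of RNA quality in the results below was not tested. In such bulk samples, fewer cells of a type and less RNA per cell cannot be told apart. The 5 muscle markers had a mean level between 3.65 and 3.79 in all 7 groups.

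Promoter sequences are shown for 5 genes, the common subunit with the smallest p in WT lymphomas in each complex among those with a window, since the results below turn on them. RefSeq windows on GRCm38.p6, from 250 bases before to 50 bases after the annotated start, were matched by gene ID for 79 of the 96 members, and the window listed first was used. They are printed 5′ to 3′ on the gene's strand. Capitals mark matches, on either strand, to letters of factors known for mitochondrial genes: GCGC, any 2 bases and GCGC again for NRF1, CCGGAAG for the ETS family to which GABPA belongs, AAGATGGCG for YY1, CACGTG for the E-box read by Myc, and AAGGTCA for ERR.
Ndufv2, chr17:66101510-66101809, minus strand: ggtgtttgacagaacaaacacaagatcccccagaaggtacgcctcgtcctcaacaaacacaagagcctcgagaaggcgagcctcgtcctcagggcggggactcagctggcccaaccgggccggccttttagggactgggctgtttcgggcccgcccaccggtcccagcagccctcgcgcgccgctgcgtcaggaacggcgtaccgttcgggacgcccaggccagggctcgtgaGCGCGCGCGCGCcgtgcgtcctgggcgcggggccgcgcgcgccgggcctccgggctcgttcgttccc
Sdhd, chr9:50603800-50604099, minus strand: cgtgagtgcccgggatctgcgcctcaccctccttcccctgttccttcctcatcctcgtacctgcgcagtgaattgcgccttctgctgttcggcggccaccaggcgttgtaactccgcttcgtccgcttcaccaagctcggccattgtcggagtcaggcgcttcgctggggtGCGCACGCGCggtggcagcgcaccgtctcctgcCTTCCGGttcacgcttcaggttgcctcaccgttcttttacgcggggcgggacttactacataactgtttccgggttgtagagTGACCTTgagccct
Uqcrfs1, chr13:30545267-30545566, minus strand: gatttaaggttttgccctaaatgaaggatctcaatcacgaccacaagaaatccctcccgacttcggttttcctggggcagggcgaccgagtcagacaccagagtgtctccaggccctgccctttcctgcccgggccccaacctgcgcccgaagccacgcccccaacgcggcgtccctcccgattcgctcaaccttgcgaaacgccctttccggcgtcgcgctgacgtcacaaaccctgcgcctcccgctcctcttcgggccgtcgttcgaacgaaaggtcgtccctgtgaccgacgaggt
Cox7a2, chr9:79759804-79760103, minus strand: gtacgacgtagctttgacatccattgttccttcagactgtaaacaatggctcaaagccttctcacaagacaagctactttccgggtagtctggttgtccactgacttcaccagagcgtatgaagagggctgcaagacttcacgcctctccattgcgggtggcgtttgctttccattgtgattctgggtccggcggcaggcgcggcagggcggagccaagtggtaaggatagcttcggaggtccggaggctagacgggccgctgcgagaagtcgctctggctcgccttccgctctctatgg
Atp5c1, chr2:10080461-10080760, minus strand: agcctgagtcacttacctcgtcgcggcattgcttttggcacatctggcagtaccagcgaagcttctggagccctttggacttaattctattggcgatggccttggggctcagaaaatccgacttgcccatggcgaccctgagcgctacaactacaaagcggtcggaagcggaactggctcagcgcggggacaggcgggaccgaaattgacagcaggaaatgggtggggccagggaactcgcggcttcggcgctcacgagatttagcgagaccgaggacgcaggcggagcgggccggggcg
In Ndufv2 the capitals are a pair of overlapping NRF1 matches. In Sdhd they are, in order, an NRF1, an ETS and an ERR match. Uqcrfs1, Cox7a2 and Atp5c1 hold none of the 5 letter strings in this window. Over the 79 members, 20 windows (25.3%) held the NRF1 letters, against 6.43% of 27025 genes with a window. These 27025 are all genes with a window, measured here or not, and no set of genes matched to the members was used. ETS letters were in 21 (26.6%, against 9.12% of all), YY1 letters in 6 (7.59%, against 1.49%), ERR letters in 8 (10.1%, against 4.66%) and E-box letters in 6 (7.59%, against 7.24%). Among the 34 members with a window that were called lower in WT lymphomas, 9 held NRF1, 8 ETS, 3 YY1, 3 ERR and 1 E-box letters. A match is a stretch of letters and was not tested as a binding site.

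The first comparison asked how WT lymphomas, which the labels call senescent after ADR, differ from their own native state. Many respiratory chain genes had modestly less RNA under ADR, with 63 of the 75 common subunits below 0. Of the 96 members 40 (41.7%) were called lower, beside 14.1% of all genes tested, and 4 higher (4.17%), beside 16.1% of all genes (limma, Benjamini-Hochberg adjusted p below 0.05 over all genes). Most members are bright, and bright genes were called more often. Of the 88 members at a mean log2 level of 6 or more 39 were called lower, beside 26.2% of all genes at that level. The calls were uneven between complexes: 15 of 34 subunits of complex I, 2 of 4 of complex II, 4 of 9 of complex III and 9 of 17 of complex V were called lower, and 1 of 10 common subunits of complex IV. Among the factors 8 of 13 were lower and 2 higher.

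Sizes were small. The mean log2 difference (ADR minus native) over the 75 common subunits was -0.15 ± 0.11 (SD, n = 14 lymphomas), where the median over all genes was 0.00. It was below 0 in 12 of 14 lymphomas, from -0.30 in lymphoma 3769 to 0.05 in lymphoma 2949, and lymphoma 9583 was the other above 0, at 0.03. By complex the means were -0.15 ± 0.11 for complex I, -0.24 ± 0.16 for complex II, -0.20 ± 0.14 for complex III, -0.18 ± 0.13 for complex V and -0.28 ± 0.17 for the factors (SD, n = 14). Complex IV was the smallest of these, at -0.06 ± 0.11 over its common subunits, below 0 in 8 of 14 lymphomas. Whether the complexes differ from each other was not tested.

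**Figure D1:**
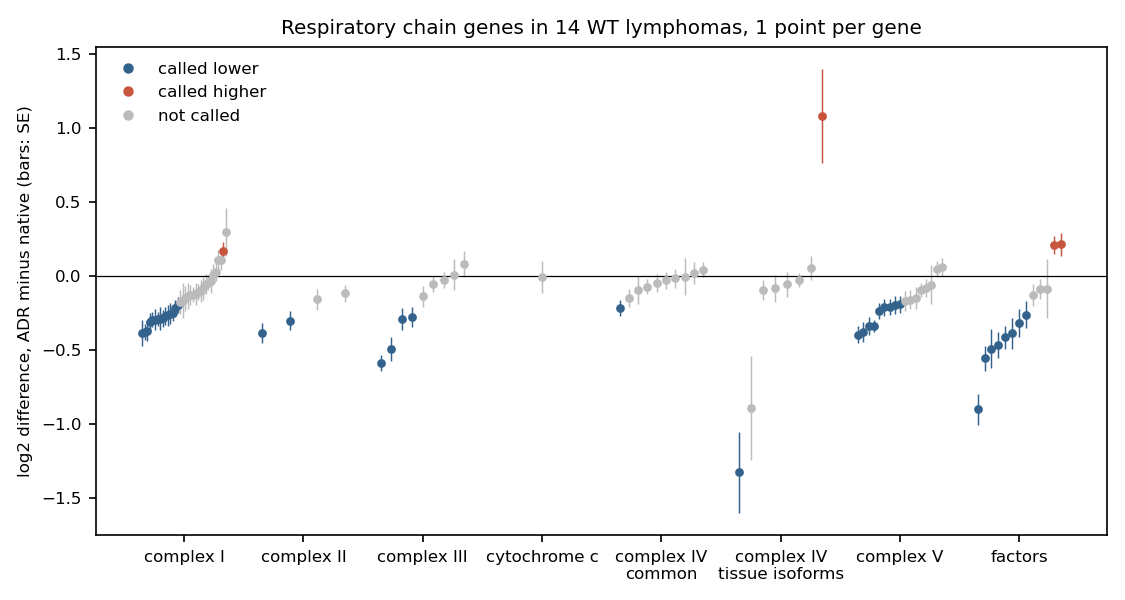
Log2 difference (ADR minus native) of each of the 96 members in 14 WT lymphomas, grouped by complex, with SE bars; blue points were called lower, red points higher and grey points not called. Most points lie between -0.6 and 0.3, the common subunits of complex IV lie near 0 with 1 call, and Cox7a1 (-1.33) and Cox6b2 (1.08) lie farthest out.

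Complex III held the largest change among the common subunits. Uqcrfs1, the Rieske iron-sulfur protein that passes electrons within complex III, had levels of 9.69 (lowest), 10.13 (median) and 10.42 (highest) in WT ADR arrays, against 10.44, 10.70 and 10.93 in WT native arrays. The highest ADR array lay just below the lowest native array, so the groups did not overlap. Uqcrfs1 was the single member of which this holds, and 0.561% of all genes were lower in this way. It fell by 0.59 on the log2 scale (SE 0.05, adjusted p = 3.82e-08) and was lower in 14 of 14 lymphomas. Cyc1, the cytochrome c1 subunit that takes the electron next, had 10.11, 10.54 and 10.84 under ADR, against 10.43, 10.84 and 11.11 native. It fell by 0.29 (SE 0.07, adjusted p = 0.00363), with overlapping groups. The matrix-side core proteins Uqcrc2 and Uqcrc1 fell by 0.49 and 0.28, in 13 of 14 lymphomas each. The other 5 subunits of complex III (Uqcrb, Uqcrh, Uqcrq, Uqcr10 and Uqcr11) were not called on their brightest probe set. For Uqcr10 that probe set was at -0.05, while a pair of dimmer ones were called lower, at -0.30 (adjusted p = 0.0119) and -0.38 (adjusted p = 0.0159).

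In complex I the calls took in 4 of the 6 measured nuclear core subunits, among which are the carriers of the flavin and iron-sulfur centres, and 11 of 28 accessory subunits. Ndufv2, a core subunit with an iron-sulfur cluster, had 10.30, 10.55 and 10.89 (lowest, median and highest) in WT ADR arrays, against 10.51, 10.94 and 11.24 in WT native arrays, and fell by 0.38 in 14 of 14 lymphomas (SE 0.06, adjusted p = 1.28e-05). The accessory subunits Ndufb11 and Ndufb3 fell by 0.30 (SE 0.05) and 0.29 (SE 0.05), also in 14 of 14. Ndufv1, which binds NADH, fell by 0.26 (SE 0.07) and Ndufs1, the largest iron-sulfur subunit, by 0.27 (SE 0.07). Of the other core subunits Ndufs8 fell by 0.39, while Ndufs3 was at -0.04 and Ndufs7 at -0.14, neither of them called. Ndufa13 moved against the majority and rose by 0.17 (SE 0.06, adjusted p = 0.0492, higher in 11 of 14). That call sat at the threshold and was kept under 9 of 24 other settings. The brightest single-symbol probe set of Ndufb4 was dim, with a mean of 2.98 under ADR and 3.06 native.

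Complex II is also the succinate dehydrogenase of the tricarboxylic acid cycle. Its membrane anchor Sdhd had 9.04, 9.72 and 9.92 in WT ADR arrays, against 9.10, 10.10 and 10.62 in WT native arrays, and fell by 0.39 (12 of 14 lymphomas lower, SE 0.07, adjusted p = 9.34e-05). The iron-sulfur subunit Sdhb had 10.11, 10.34 and 10.56 under ADR, against 10.15, 10.64 and 10.81 native, and fell by 0.30 (SE 0.06, adjusted p = 0.000625). The groups of both genes overlapped, with the ADR median below the native one. The flavoprotein Sdha was at -0.12 (SE 0.06, adjusted p = 0.129) on its brightest probe set, and a dimmer one, at a mean log2 level of 9.79, was called lower at -0.27 (SE 0.07, adjusted p = 0.00441). The second anchor Sdhc was at -0.16 (SE 0.07, adjusted p = 0.102). Cycs, the mobile carrier cytochrome c, showed no mean difference, with 11.36, 11.74 and 12.12 under ADR, against 11.12, 11.69 and 12.45 native. Its change ran from -0.73 to 0.78 over the 14 lymphomas, a spread of 0.43 (SD), and the mean was -0.01 (SE 0.11, adjusted p = 0.975).

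In complex V the whole catalytic F1 part, 5 of 5 subunits, was called lower on the brightest probe set per gene. Beside it, 1 of 3 genes of the c ring, 1 of 4 of the stalk and 2 of 5 of the other membrane part were called lower. Atp5c1, the gamma subunit that turns inside F1, had 11.22, 11.45 and 11.62 in WT ADR arrays, against 11.56, 11.77 and 11.86 in WT native arrays. It fell by 0.34 in 14 of 14 lymphomas (SE 0.04, adjusted p = 1.04e-06). The lowest native array lay below the highest ADR array by a small margin. Atp5a1 fell by 0.38 and Atp5b, the catalytic beta subunit, by 0.198 (SE 0.06, adjusted p = 0.0125). A dimmer probe set of Atp5a1, at a mean log2 level of 11.40, was at -0.11 (SE 0.07, adjusted p = 0.25) and was not called. The 3 genes Atp5g1, Atp5g2 and Atp5g3 encode the same mature c subunit. Atp5g2 had 10.57, 10.99 and 11.43 under ADR, against 10.96, 11.45 and 11.91 native, and fell by 0.40 in 14 of 14 lymphomas (SE 0.06, adjusted p = 7.67e-06). Atp5g1 was at -0.06 (SE 0.13, adjusted p = 0.807) and Atp5g3 at -0.17 (SE 0.07, adjusted p = 0.0610), neither of them called.

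Complex IV differed little among its common subunits. Cox7a2 fell by 0.22 (SE 0.05, adjusted p = 0.00258), with 11.89, 12.07 and 12.27 in WT ADR arrays, against 11.87, 12.33 and 12.52 in WT native arrays. Cox5a was at -0.15 (SE 0.06, adjusted p = 0.0595). Cox4i1, the regulatory subunit present in most tissues, was at 0.04 (SE 0.05, adjusted p = 0.587), with 12.23, 12.50 and 12.72 under ADR, against 12.24, 12.47 and 12.59 native. Of the other common subunits, Cox6a1 was at -0.07, Cox6b1 at -0.03, Cox8a at 0.02 and Ndufa4 at -0.10. The brightest of the Cox7c probe sets had a mean of 5.64 in both states.

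Of the 8 tissue isoforms 6 had a mean log2 level under 6, and several varied more between lymphomas. Cox7a1, the heart and muscle form of subunit 7a, had 2.81, 4.20 and 4.85 in WT ADR arrays, against 4.09, 5.18 and 7.67 in WT native arrays, and fell by 1.33 (13 of 14 lymphomas lower, SE 0.27, adjusted p = 0.000524). Cox6b2, the testis form of subunit 6b, had 3.67, 4.93 and 9.25 under ADR, against 3.34, 4.66 and 5.34 native, and rose by 1.08 (SE 0.32, adjusted p = 0.0105, higher in 10 of 14). The upper ADR arrays of Cox6b2 lay far above the native range while the medians were close. Cox6a2, the muscle form of subunit 6a, had 5.55, 6.29 and 7.59 under ADR, against 5.80, 6.88 and 10.33 native, and was at -0.90 (SE 0.35, adjusted p = 0.0565). Cox4i2, Cox8b and Ndufa4l2 were at -0.06, -0.08 and -0.09, none of them called. In Suv39h1- lymphomas Cox7a1 was at -1.33 as well (SE 0.46, adjusted p = 0.285), lower in 5 of 5.

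**Figure D2:**
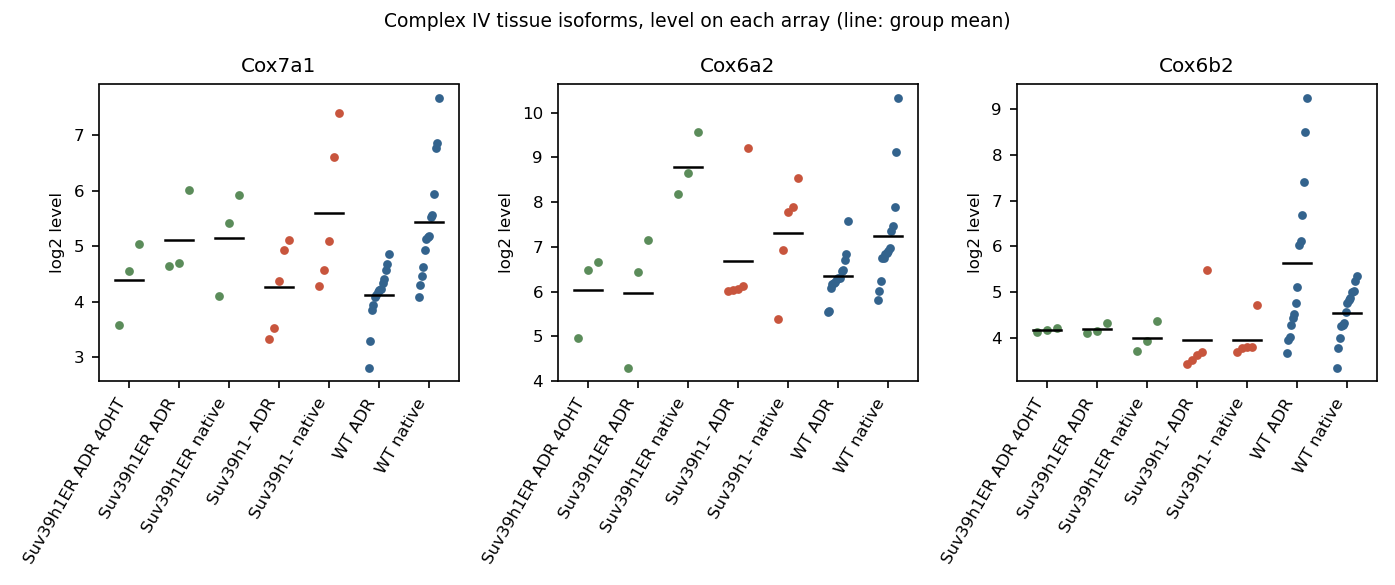
Log2 level of Cox7a1, Cox6a2 and Cox6b2 on each of the 47 arrays by group, with the line at the group mean. Levels spread widely within groups; Cox6b2 reaches 9.25 in WT ADR arrays while both Suv39h1- groups and the 3 Suv39h1ER groups stay at or below 5.48.

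Assembly factors help build complexes I and II and are not part of the finished chain. Of 8 complex I factors 6 were called lower. Ndufaf6 had 6.67, 7.07 and 7.59 in WT ADR arrays, against 7.43, 7.995 and 8.89 in WT native arrays, and fell by 0.90 in 14 of 14 lymphomas (SE 0.10, adjusted p = 5.82e-07). Ndufaf3 fell by 0.49, Ndufaf5 by 0.47 and Ndufaf2 by 0.42. Of the 4 complex II factors Sdhaf3 and Sdhaf1 fell by 0.56 and 0.39, and Sdhaf2, which attaches the flavin to Sdha, and Sdhaf4 each rose by 0.21. The call of Sdhaf2 was kept under 21 of 24 other settings, and that of Sdhaf4 under 12 of 24. The supercomplex factor Cox7a2l was at -0.09.

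Other mitochondrial genes were counted in lists made by function. Of 76 mitochondrial ribosomal proteins 48 were called lower and none higher (median -0.29), among them Mrps9 at -0.74 and Mrpl18 at -0.79. Of 16 tricarboxylic acid cycle genes 11 were lower (median -0.24), with fumarase Fh1 at -0.81 and Idh2 at -0.74. Of 16 genes of mitochondrial transcription and replication 6 were lower (median -0.22), with Tfam, which packs mitochondrial DNA, at -0.63 and the rRNA methyltransferase Tfb1m at -0.83. Of 21 import genes 7 were lower (median -0.16), with Timm17b at -0.56 and Timm50 at -0.37. Of 31 further assembly genes of the chain 11 were lower and 5 higher (median -0.16), with Bcs1l, which inserts the Rieske protein into complex III, at -0.66 and Ecsit at -0.63. Of 11 regulators of mitochondrial biogenesis 5 were lower and 1 higher (median -0.08). Here Gabpa, the ETS factor named above, was at -0.70 and Nrf1 at -0.73. Of 9 antioxidant and uncoupling genes 2 were lower and 1 higher, with the superoxide dismutase Sod2 at 0.86 and Glrx2 at -0.27. Of 7 carriers and porins 2 were lower, Vdac1 at -0.19 and the adenine nucleotide carrier Slc25a5 at -0.27.

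Because fibroblast markers moved with ADR in WT lymphomas, the 14 WT differences were also fitted with each lymphoma's fibroblast list change as a covariate. At the mean fibroblast change 43 members were called lower, beside 16.2% of all genes. At a fibroblast change of 0, the low end of the range, 7 were called lower (Uqcrfs1, Ndufaf6, Atp5c1, Atp5g2, Ndufv2, Sdhaf3 and Cox7a1) and 2 higher (Ndufb1 and Ndufaf4), beside 5.46% of all genes lower and 6.19% higher. Precision is lower there as well. The mean over the common subunits was -0.09 at that point, and Uqcrfs1 was at -0.55 (SE 0.10, adjusted p = 0.00361). Across the 14 lymphomas the Uqcrfs1 change showed no relation that passed to the fibroblast list (Pearson r = -0.18, permutation p = 0.546, adjusted p = 0.606, Spearman rho = -0.14, permutation p = 0.637, adjusted p = 0.83), the macrophage list (r = -0.15, p = 0.606, rho = -0.06, p = 0.83) or the mitosis list (r = -0.31, p = 0.282, adjusted p = 0.606, rho = -0.20, p = 0.492, adjusted p = 0.83). Without the 2 lymphomas farthest from the median of each list, r was -0.06, 0.10 and 0.19.

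A total of 44 members had further probe sets at a mean log2 level of 6 or more, 63 in all. Of the 26 that sat beside a called brightest one, 26 had its sign and 22 were called the same way. Those not called belong to Atp5a1 (-0.11), Ndufa12 (-0.06), Ndufab1 (-0.19) and Ndufs4 (-0.06). Of the 37 beside a brightest one that was not called, 7 were called lower and none higher. These belong to Sdha and Uqcr10, given above, and to Atp5h (-0.20), Atp5pb (-0.24), Ndufs7 (-0.21) and Ndufb2 (-0.195), and were named after their values were seen. Leaving out any 1 WT lymphoma gave 39 to 47 members called lower.

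The second comparison took the same step in Suv39h1- lymphomas, labelled non-senescent in both states. No member was called, beside 0.011% of all genes (2 genes). At an unadjusted p below 0.05 there were 3 of 96 members, beside 1885 (10.4%) of all genes. The 3 were all tissue isoforms of complex IV (Cox8c at -0.29, Cox7a1 at -1.33 and Cox8b at -0.33). The mean log2 difference over the common subunits was 0.01 ± 0.13 (SD, n = 5), at -0.09, -0.09, 0.00, 0.00 and 0.22 in lymphomas 5783, 7890, 9250, 1032 and 4936. Lymphoma 4936 was thus the highest.

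Uqcrfs1 had 10.31, 10.69, 10.77, 10.46 and 10.52 in the Suv39h1- ADR arrays of lymphomas 5783, 7890, 9250, 1032 and 4936, against 10.60, 10.81, 10.93, 10.57 and 10.42 in their native arrays. It was lower in 4 of 5, with a log2 difference of -0.12 (SE 0.09, adjusted p = 0.701), and the groups overlapped. Ndufaf6 had 7.61, 8.39, 8.20, 7.87 and 8.08 under ADR, against 8.25, 8.47, 8.73, 7.62 and 7.61 native, with a difference of -0.11 (SE 0.17, adjusted p = 0.884). Atp5c1 was at -0.06 (SE 0.07), Ndufv2 at -0.06 (SE 0.09) and Sdhd at 0.02 (SE 0.11). By complex the means were -0.01 for complex I, 0.05 for complex II, 0.03 for complex III, 0.04 for the common subunits of complex IV and -0.01 for complex V.

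**Figure D3:**
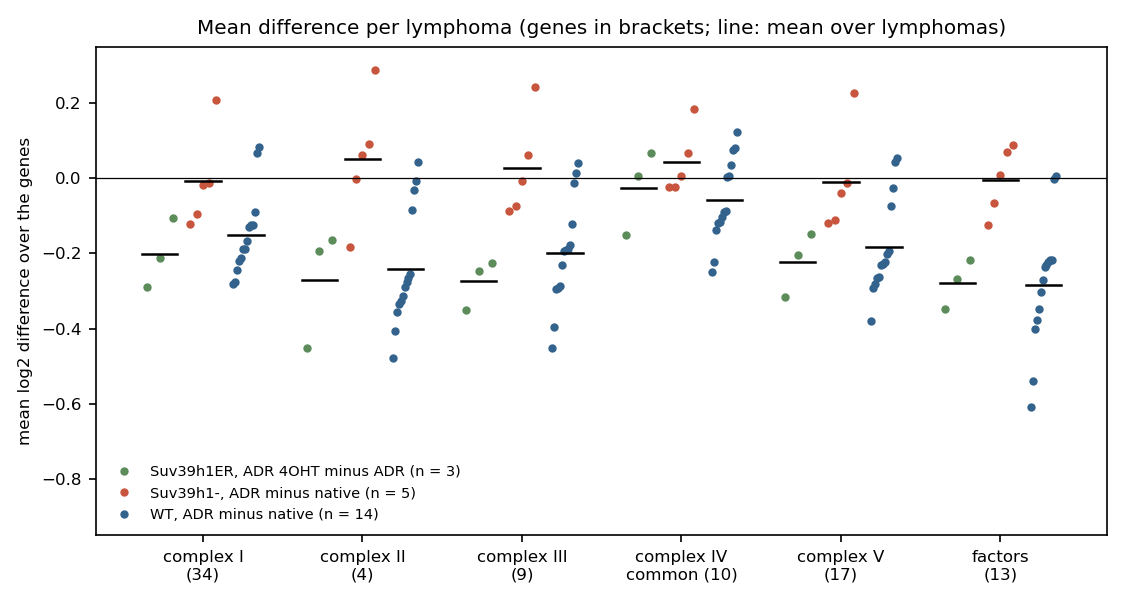
Mean log2 difference per lymphoma over the genes of each complex, for Suv39h1ER cultures (ADR 4OHT minus ADR), Suv39h1- lymphomas and WT lymphomas (ADR minus native), with a line at the mean over lymphomas. WT means lie between -0.28 and -0.06, Suv39h1- means between -0.01 and 0.05, and Suv39h1ER means between -0.28 and -0.03. The Suv39h1ER mean of complex IV (-0.03) takes in a gene at 0.85, and the median over its genes is -0.12.

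The difference between both responses was tested itself, as the Suv39h1- response minus the WT response. Of the members 1 was called, Uqcrfs1, higher by 0.48 (SE 0.11, adjusted p = 0.0473), beside 0.154% of all genes called higher. The call sat at the threshold. It was kept under 8 of 27 other settings, where the value ran from 0.42 to 0.57 and the adjusted p reached 0.168. The next members were Ndufaf6 at 0.79 (SE 0.20, adjusted p = 0.0691), Ndufaf2 at 0.60 (SE 0.15, adjusted p = 0.0691) and Atp5c1 at 0.27 (SE 0.08, adjusted p = 0.0947). The mean difference over the common subunits was 0.16, with 66 of 75 above 0, where the median over all genes was -0.05. Of the other lists, 1 mitochondrial ribosomal protein and 1 tricarboxylic acid cycle gene were called higher. The mitosis list had 2 of 11 called higher (mean 1.54) and the macrophage list 1 of 8 called lower (mean -1.46), and the fibroblast list had no call (mean -1.67).

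The genotypes were then compared state by state, over 19 arrays each. In the native state no member was called, beside 1.09% of all genes (198 genes). An unadjusted p below 0.05 was reached by 7 of 96 members, beside 1735 (9.54%) of all genes. The smallest p belonged to Sdhc, at -0.58 (SE 0.18, adjusted p = 0.177). It was 9.09, 8.70, 9.16, 8.36 and 8.81 in native arrays of Suv39h1- lymphomas 7890, 9250, 1032, 4936 and 5783, against 8.71, 9.36 and 10.18 (lowest, median and highest) in native WT arrays. Uqcrc2 followed at 0.26 and Sdhaf2 at -0.29. The mean over the common subunits was 0.03. It was 0.03 for complex I, -0.14 for complex II, 0.04 for complex III, 0.12 for the common subunits of complex IV and -0.02 for complex V. The median was -0.04 for complex II, where Sdhc was lowest. For the common subunits of complex IV it was 0.06, with the highest at 0.55.

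Under ADR 17 members (17.7%) were called higher in Suv39h1- than in WT lymphomas and none lower, beside 6.3% of all genes called higher and 12.6% of those at a log2 level of 6 or more. They were 6 of 34 subunits of complex I, 1 of 4 of complex II, 3 of 9 of complex III, 1 of 10 common subunits of complex IV, 2 of 17 of complex V and 4 of 13 factors. Mean differences were 0.18 for complex I, 0.15 for complex II, 0.27 for complex III, 0.22 for the common subunits of complex IV and 0.16 for complex V. Ndufaf6 was higher by 0.96 (SE 0.14, adjusted p = 0.000468), and its lowest Suv39h1- ADR array, at 7.61, lay above the highest WT ADR array, at 7.59. Atp5c1 had 11.66, 11.78, 11.86, 11.70 and 11.84 in the Suv39h1- ADR arrays of lymphomas 5783, 7890, 9250, 1032 and 4936, against 11.22, 11.45 and 11.62 (lowest, median and highest) in WT ADR arrays. It was higher by 0.35 (SE 0.07, adjusted p = 0.0053), again with no overlap. The 2 members whose groups did not overlap in this direction are 2.08% of the 96, beside 0.566% of all genes. Ndufaf2 was higher by 0.68, Uqcrc2 by 0.59, Ndufs8 by 0.53, Sdhd by 0.52 and Uqcrfs1 by 0.43 (SE 0.11, adjusted p = 0.0149). Ndufaf1, Ndufa12, Ndufv1 and Ndufb11 were higher by 0.52, 0.42, 0.41 and 0.32. The WT ADR arrays are those of the first comparison, so these values are not a separate line of evidence.

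This count depended on few lymphomas. It was 6 without Suv39h1- lymphoma 7890, 6 without 9250, 8 without 4936, and 2 with the alike lymphomas counted once. Calls over all genes, in either direction, numbered 1369, 1227, 1365 and 604 in these settings, against 2293 with every lymphoma kept. The count of members was 42 with each array centred on its median, with 2926 calls over all genes. Without lymphoma 1032, 18 were higher and 1 member was called lower, with 3389 calls over all genes. In these Suv39h1- arrays and the WT arrays, the mean level was 5.45 and 6.88 for fibroblast markers, 7.16 and 8.76 for macrophage markers, and 9.19 and 7.80 for mitosis genes. Their part in the difference was not tested. Among the other lists, 39 of 76 mitochondrial ribosomal proteins, 9 of 16 tricarboxylic acid cycle genes, 7 of 16 transcription and replication genes, 7 of 21 import genes, 5 of 31 further assembly genes, 2 of 11 biogenesis regulators, 1 of 9 antioxidant genes and 1 of 7 carriers were called higher, and 1 cycle gene lower. Of the marker lists, 9 of 11 mitosis genes were called higher, and 1 fibroblast and 1 macrophage marker lower.

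**Figure D4:**
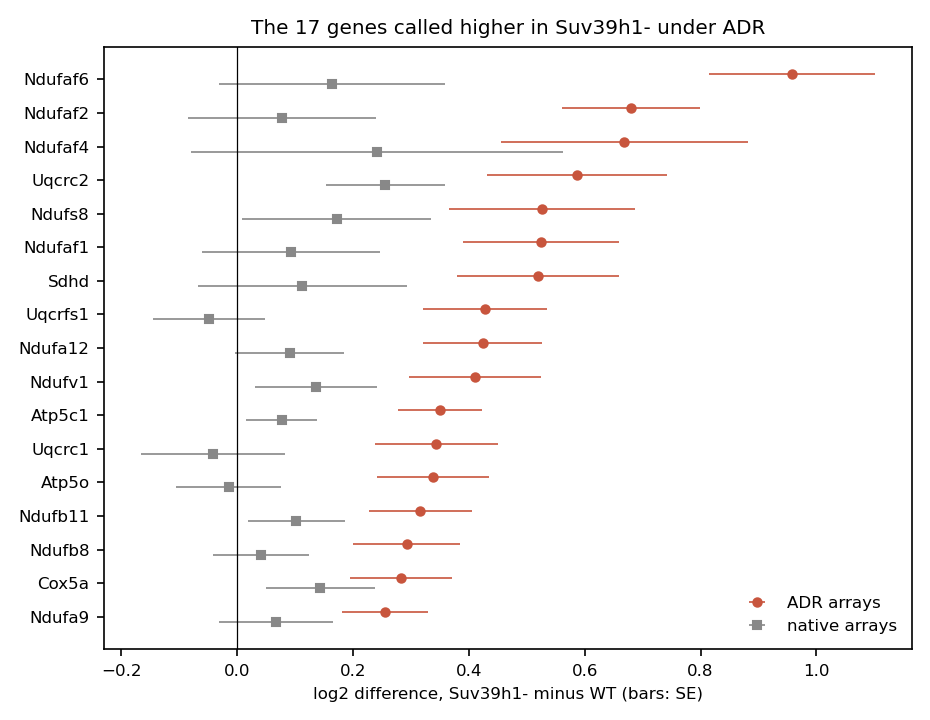
Log2 difference (Suv39h1- minus WT) with SE for the 17 members called higher under ADR, in ADR arrays (circles) and in native arrays (squares). The ADR differences run from 0.26 for Ndufa9 to 0.96 for Ndufaf6; the native differences run from -0.05 for Uqcrfs1 to 0.26 for Uqcrc2.

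The last comparisons used the 3 Suv39h1ER cultures, in which 4OHT activates the fused Suv39h1 under ADR. Comparing ADR 4OHT with ADR, no member was called, beside 0.143% of all genes (26 genes). An unadjusted p below 0.05 was reached by 29 of 96 members, 28 of them lower, beside 2268 (12.5%) of all genes. Of the 75 common subunits 65 were below 0, where the median over all genes was -0.02. The mean over the common subunits was -0.19 ± 0.07 (SD, n = 3), at -0.19, -0.27 and -0.13 in cultures SuvER-4146, SuvER-4936 and SuvER-5043. For 42 of 96 members (43.8%) all 3 ADR 4OHT arrays lay below all 3 ADR arrays, beside 11.7% of all genes, and for 2 above, beside 8.55%. Here and above, shares of groups that do not overlap were taken over all genes and not over bright genes alone, while most members are bright. By complex the means were -0.20 for complex I, -0.27 for complexes II and III, -0.22 for complex V and -0.28 for the factors, and -0.03 for the common subunits of complex IV. Of these 10 common subunits of complex IV 8 were below 0, with a median of -0.12, and the highest was at 0.85.

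Cyc1 had 10.39, 10.22 and 10.09 under ADR 4OHT in cultures SuvER-4146, SuvER-4936 and SuvER-5043, against 10.93, 11.07 and 10.86 under ADR and 10.80, 10.35 and 11.07 native. The ADR 4OHT arrays lay below the ADR arrays, while the native arrays spread over both. Its difference, ADR 4OHT minus ADR, was -0.72 (SE 0.16, adjusted p = 0.0634). Uqcrfs1 had 9.82, 10.13 and 10.09 under ADR 4OHT, against 10.65, 10.45 and 10.43 under ADR and 10.57, 10.59 and 10.46 native. Here the ADR 4OHT arrays lay below both other states in each culture, with a difference to ADR of -0.50 (SE 0.12, adjusted p = 0.0766). Ndufa9, an accessory subunit of complex I, was at -0.55 (SE 0.13, adjusted p = 0.0846).

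**Figure D5:**
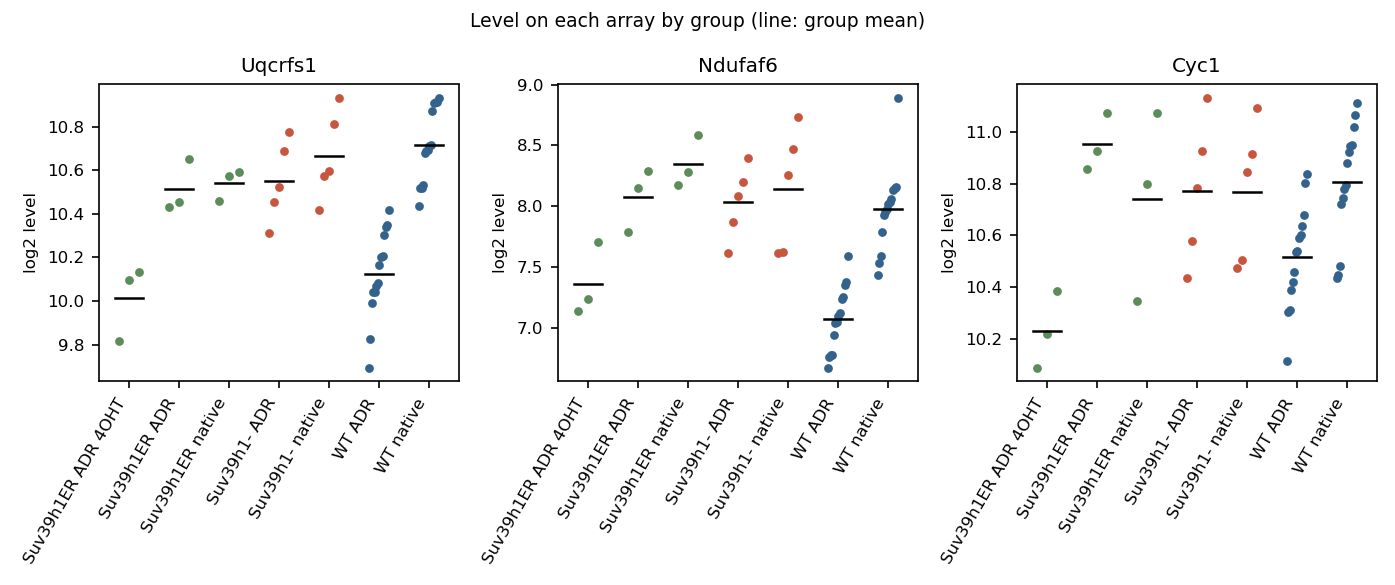
Log2 level of Uqcrfs1, Ndufaf6 and Cyc1 on each array by group, with the line at the group mean. For Uqcrfs1 the WT ADR arrays (9.69 to 10.42) lie below the WT native arrays (10.44 to 10.93), and the Suv39h1ER ADR 4OHT arrays (9.82 to 10.13) below the ADR and native arrays of the same cultures (10.43 to 10.65).

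Comparing ADR with native in the same cultures, no member was called, beside 0.126% of all genes (23 genes). An unadjusted p below 0.05 was reached by 10 of 96 members, 3 lower and 7 higher, beside 2240 (12.3%) of all genes. The smallest p values belonged to Cox6a2 at -2.83 (SE 0.76, adjusted p = 0.119), the membrane subunit Atp5l of complex V at 0.43 (SE 0.12, adjusted p = 0.137) and Sdhaf2 at 0.44 (SE 0.13, adjusted p = 0.155). The mean over the common subunits was 0.05 ± 0.15 (SD, n = 3), at -0.01, 0.23 and -0.06 in cultures SuvER-4146, SuvER-4936 and SuvER-5043. Cytochrome c moved most in culture SuvER-4936, where Cycs had 11.83 under ADR 4OHT, 12.24 under ADR and 10.83 native.

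Comparing ADR 4OHT with native, 1.57% of all genes were called lower, and 3.06% of those at a mean log2 level of 6 or more. Of the members 11 (11.5%) were called lower and none higher. They were Uqcrfs1 at -0.53 (SE 0.12, adjusted p = 0.0164), Sdhb at -0.57, the complex I subunits Ndufs4 at -0.47 and Ndufb5 at -0.48, Atp5c1 at -0.33, Atp5e at -0.47 and Atp5g2 at -0.45, the factors Ndufaf6 at -0.99, Ndufaf5 at -0.74 and Ndufaf3 at -1.08, and Cox6a2 at -2.77. Ndufaf6 had 7.14, 7.23 and 7.70 under ADR 4OHT in cultures SuvER-4146, SuvER-4936 and SuvER-5043, against 8.17, 8.59 and 8.28 native. Cox6a2 had 4.96, 6.48 and 6.65 under ADR 4OHT, 6.45, 4.30 and 7.16 under ADR, and 8.18, 9.56 and 8.65 native, so both treated states lay below native. The count was 0 without SuvER-4146, 0 without SuvER-4936 and 2 without SuvER-5043, where Uqcrfs1 and Ndufaf6 were still called. Calls over all genes, in either direction, ran from 90 without SuvER-4936 to 326 without SuvER-4146, against 537 with every culture kept. The differences themselves stayed negative with 2 cultures, from -0.61 to -0.41 for Uqcrfs1 and from -0.82 to -0.68 for Ndufaf5. The 3 comparisons within these cultures share arrays, and their values are given side by side. Of 76 mitochondrial ribosomal proteins 8 were lower here, of 16 tricarboxylic acid cycle genes 2 and of 16 transcription and replication genes 1, beside no call in import genes. Under ADR 4OHT, ADR and native, macrophage markers had a mean level of 6.995, 7.44 and 5.39 and mitosis genes of 8.69, 9.46 and 9.96 in these cultures. The part of these and of the fibroblast markers, given above, was not tested.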

How the data were processed

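The deposited values are log2 expression per probe set. Per the submitters' processing notes, the authors used RMA, oligo and R 3.5.0. Nothing used here says whether all 47 arrays were normalized together. Of 45101 probe sets 34958 carry 1 gene symbol in the platform annotation, 932 several and 9211 none. Symbols of 34754 were updated through their Entrez number, and the brightest probe set per gene over all arrays gave 18194 genes, with no filter on dim genes. Of the members, 6 are read by a probe set ending in _x_at and 13 by one ending in _s_at, which can also read near-identical transcripts.

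Differences were tested with limma 3.58.1 in R 4.3.3. Comparisons within a lymphoma used 1 fit of 47 arrays, in which each of the 22 cultures was a fixed block beside 4 terms for treatment. The pairing comes from the series' design, which describes matched pairs. Deviations from the group means of arrays of 1 culture correlated above 0.1 in 10 of 14 WT, 5 of 5 Suv39h1- and 2 of 9 Suv39h1ER pairs. Genotypes were compared over 19 arrays per state, with no block. Calls required an adjusted p (Benjamini-Hochberg over all genes, two-sided) under 0.05. Relations of Uqcrfs1 to 3 marker lists used 100000 resamples, adjusted over the 3. The number of arrays limits the precision. The 22 cultures carry 20 distinct numbers, since 4936 names a Suv39h1- and a Suv39h1ER culture and 5043 a WT and a Suv39h1ER culture. Whether these share an animal is not given in the labels, and they were treated as separate cultures. If the alike lymphomas have 1 source, p-values are too small.

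The members and lists were chosen with earlier results of these data known. Named are, per complex, the 3 members with the smallest p in WT and any called against the majority, a fixed set (Ndufs1, Ndufv1, Sdha, Sdhb, Uqcrfs1, Cyc1, Cycs, Cox4i1, Cox5a, Atp5b), the isoform pairs, and elsewhere up to 10 called members or the 3 with the smallest p. Values for other members were chosen for mention after they were seen. The fit was tested on simulated data. Alternatives covered the choice of probe set, a filter at log2 6, array scaling, the block, the variance model, alike lymphomas, left-out lymphomas and the fibroblast covariate.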

Additional observations from a re-analysis of the deposited data

Results flagged for a closer look

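Among the 5 Suv39h1- lymphomas, 35 changes (ADR minus native) reported as class means or named genes were checked for a lymphoma that lies far from the other 4 relative to the range. Such a gap was found in 4. For a single check chance gives about 1 in 20. The 35 checks share lymphomas and genes, and cytochrome c enters both as a class and as a gene. The count therefore cannot be set against that rate. In lymphoma 4936 the changes of Ndufv2 (0.44), Atp5b (0.34) and Uqcrc2 (0.11) lay above those of the other 4. In lymphoma 7890 the change of Ndufa13 (-0.11) lay below the others.

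Uqcrfs1 differed between genotypes in its response to ADR, by 0.48 on the log2 scale (Suv39h1- minus WT, limma, adjusted p = 0.0473), by the test of the difference itself. The call sat at the threshold and was kept under 8 of 27 other settings.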

How the results depend on the processing

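The mean log2 difference of the common subunits moved by less than the spread between lymphomas in all 8 comparisons and all alternatives, except Suv39h1- minus WT under ADR with each array centred on its median (0.299). This limit is wide. The spread exceeded the mean in Suv39h1- lymphomas (0.01 ± 0.13, SD), and theirs alone served for the response difference and the genotype comparisons. Within the limit, the WT mean went from -0.15 to -0.09 at a fibroblast change of 0. Members called lower in WT under ADR numbered 7 at a fibroblast change of 0, a fit of 14 differences at the edge of their range, and members called higher numbered 2 there and at the mean fibroblast change. With no replicate block and with a random replicate block, 1 member was higher in WT, and Suv39h1ER ADR 4OHT minus native had 2 and 5 lower. For Suv39h1ER ADR 4OHT minus native, quantile normalization gave 7. For Suv39h1ER ADR 4OHT minus ADR, 1 member was lower among genes at log2 6 or more and 2 with a random block. For the response difference, the members called higher were 3 among genes at log2 6 or more, 4 with centred arrays, and 0 with quantile normalization, no block, a random block, the trended robust variance or alike lymphomas counted once. For Suv39h1- minus WT under ADR, centred arrays gave 42 higher and alike lymphomas counted once 2, and 1 was lower among bright genes and with quantile normalization. Leaving out 1 lymphoma gave 2 to 4 higher in WT, 0 to 3 higher for the response difference, 6 to 25 higher and 0 to 1 lower for Suv39h1- minus WT under ADR, and 0 to 2 lower for ADR 4OHT minus native. Single called members turned sign in 3 cases: Ndufaf1 (0.0395) and Ndufs1 (0.0326) in WT at a fibroblast change of 0, and Atp5c1 (0.0410) for ADR 4OHT minus native with all probe sets averaged. Other causes were not tested. Of the 8 tissue isoforms 6 lie under a mean log2 level of 6, where signal over background limits precision.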

Other observations

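One mitochondrially encoded subunit is named on the platform, ND5 of complex I, which the choice by nuclear symbols leaves out. It had log2 levels of 11.57, 12.26 and 12.85 (lowest, median and highest) in WT ADR arrays, against 11.29, 11.81 and 12.32 in WT native arrays, and rose by 0.40 (SE 0.13, limma, adjusted p = 0.021). The groups overlapped. It was at 0.29 (SE 0.22, adjusted p = 0.688) in Suv39h1- lymphomas and at 1.00 (SE 0.28, adjusted p = 0.133) for Suv39h1ER ADR 4OHT minus ADR. The test of the response difference gave -0.11 (SE 0.25, adjusted p = 0.851). The array is labelled from poly(A) tails, and a single probe set stands for all mitochondrially encoded subunits here.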
